A study of Mus musculus with 4 samples.

Results

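The genes described here encode the nuclear subunits of oxidative phosphorylation in mouse testis. They were chosen by name as protein-coding genes with symbols of the Nduf, Sdh, Uqcr, Cox4 to Cox8, Cyc1, Cycs, Cyct and Atp5 series, leaving out the Ndufaf assembly factors. This gave 88 genes of the 28595 in the count table: 38 of complex I, 4 of complex II, 9 of complex III, 2 cytochromes c, 18 of complex IV and 17 of ATP synthase. The name rule used no measured value, but the set was chosen with earlier results of these data known. RNA was counted in 10 µm testis sections by photo-isolation chemistry (PIC), in which cDNA made with photo-caged primers is amplified only where ultraviolet light has removed the cage. The 4 groups were H3t KO testis with the entire section irradiated, wild-type testis with the entire section irradiated, H3t KO testis with light aimed only at Leydig cells, and wild-type testis with light aimed only at Leydig cells, with 3 libraries each. H3t encodes a histone H3 variant of the male germ line. The mice are labelled young only in the wild-type titles, and the sources used here give neither the age of the knockouts nor the strain. No drug, transgene or Cre line is named for any group. Different animals are not named for the 3 libraries of a group. The p-values therefore describe library-to-library spread, which may be technical. All 3 libraries of a group were deposited as 1 sample, so anything that differs between deposited pools and the difference between groups cannot be told apart.

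Oxidative phosphorylation makes most of the ATP of an aerobic cell. Complexes I and II feed electrons from NADH and succinate to ubiquinone, complex III passes them to cytochrome c, complex IV (cytochrome c oxidase) passes them to oxygen, and ATP synthase uses the resulting proton gradient. A few subunits exist as a broadly expressed somatic form and a form known from male germ cells. In mouse, Cyct is the testis form of cytochrome c beside Cycs, and Cox6b2, Cox7b2 and Cox8c are testis forms of complex IV subunits beside Cox6b1, Cox7b and Cox8a. Leydig cells, which lie between the seminiferous tubules, make testosterone, and the first step of steroid synthesis takes place in their mitochondria.

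Knockout and wild-type sections held 321771 to 475764 and 247539 to 566527 counts per library, and knockout and wild-type Leydig-targeted libraries held 15208 to 53003 and 5947 to 54882. Wild-type Leydig-targeted replicate 3 was the shallowest library and stood apart, with a scaling factor of 2.28 against 0.567 to 1.39 in the other libraries. The targeted gene, listed as H3f4 (RefSeq gives H3t as its synonym), had 0 counts in the knockout libraries and 1 in the wild-type libraries, too few to check the labels. The 9 Leydig markers in the table took 6.71% ± 0.67 of counts in knockout and 2.19% ± 0.83 in wild-type Leydig-targeted libraries, against 3.85% ± 0.41 in knockout and 0.519% ± 0.180 in wild-type sections (SD, n = 3 each). In these bulk libraries, fewer cells of a type and less RNA per cell cannot be told apart. Counts are of transcript 3′ ends and are given as CPM, that is, scaled to a common library total but not divided by gene length. Differences were tested with edgeR's quasi-likelihood test on all 12 libraries, and a gene is called where its p, adjusted over all 5182 genes tested by the Benjamini-Hochberg method, is under 0.05. Of the 88 members, 68 had enough counts to be tested. Log2 fold changes are given ± SE and are on the scale of the trimmed mean of M values (TMM), which lies below a plain CPM ratio in entire sections.

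The testis forms Cox6b2, Cox8c and Cox7b2 had the largest fold changes of the 68 tested members between genotypes in entire sections, and their somatic counterparts moved the other way. In knockout sections all 3 tested testis forms fell and all 4 somatic counterparts rose, where 39.1% of all genes tested were lower and 22.6% higher. Cox8a, Cox6b1 and Cycs would not have had enough counts to be tested without their knockout section libraries. The 3 testis forms would not have been tested without their wild-type libraries. Being tested thus favoured these directions, and the shares over all genes are no measure of them. Cox6b2 (chromosome 7, 4751792 to 4753094, minus strand of GRCm38), which encodes the testis form of subunit VIb, had 31.5, 7.65 and 52.8 CPM in knockout sections, against 1827, 1370 and 1709 CPM in wild-type sections. The highest knockout library was far below the lowest wild-type library, and the log2 fold change was -6.30 ± 0.59 (adjusted p = 8.27e-25). Cox8c (chromosome 12, 102899316 to 102900526, plus strand), the testis form of subunit VIII, had 0, 5.10 and 12.4 CPM in knockout sections, against 350, 343 and 396 CPM in wild-type sections. Its log2 fold change was -6.56 ± 0.64 (adjusted p = 5.47e-23), again with no overlap. Cox7b2 (chromosome 5, 71442824 to 71548205, minus strand), the testis form of subunit VIIb, had 0, 2.55 and 3.11 CPM in knockout sections, against 122, 123 and 105 CPM in wild-type sections. Its log2 fold change was -6.25 ± 0.70 (adjusted p = 2.76e-18) and rested on 2 knockout counts against 159 wild-type counts, a ratio 70.8-fold lower with an exact 95% counting interval of 19.3 to 589. Leaving out 1 library moved these values without ending a call: Cox6b2 was at -5.41 without knockout section replicate 2, Cox8c at -5.52 without knockout section replicate 1 and -7.47 without replicate 3, and Cox7b2 at -5.30 without knockout section replicate 1. Without knockout Leydig-targeted replicate 3, which is in neither group but in the fit, Cox6b2 was at -5.67 and Cox8c at -5.97. Cyct (chromosome 2, 76353942 to 76360450, minus strand) did not pass the filter on low counts and was not tested. Its 8.41, 12.8 and 0 CPM in knockout sections, against 83.0, 67.0 and 44.4 CPM in wild-type sections, did not overlap, and the summed ratio was 9.20-fold lower (4.64 to 20.7 by counting error).

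The somatic counterparts were at low levels in wild-type sections and higher in knockout sections, and the groups did not overlap. Absence of overlap on CPM was common in entire sections and was also seen in members not called, such as Sdha and Atp5j2. It therefore does not set the named genes apart. Its share over all genes was not computed. Cox6b1 had 181, 158 and 143 CPM in knockout sections, against 38.8, 13.4 and 44.4 CPM in wild-type sections, a log2 fold change of 1.82 ± 0.46 (adjusted p = 0.000229). Cox7b had 94.6, 191 and 68.4 CPM in knockout sections, against 23.0, 23.0 and 16.2 CPM in wild-type sections (1.85 ± 0.49, adjusted p = 0.000434). Cox8a had 101, 84.2 and 77.7 CPM in knockout sections, against 40.6, 15.3 and 20.2 CPM in wild-type sections (1.18 ± 0.49, adjusted p = 0.0265). Each of these encodes the widely expressed form of its subunit. Cycs, the somatic cytochrome c, had 96.7, 133 and 71.5 CPM in knockout sections, against 21.2, 11.5 and 28.3 CPM in wild-type sections (1.79 ± 0.51, adjusted p = 0.00102). Without knockout Leydig-targeted replicate 3 these values were 2.43 for Cox6b1, 2.45 for Cox7b, 1.78 for Cox8a and 2.40 for Cycs. The rise of all 4 counterparts is relative to the rest of the library. With libraries scaled to their Leydig marker counts the log2 fold changes turned to -0.49 for Cox6b1, -0.48 for Cox7b, -1.14 for Cox8a and -0.50 for Cycs. The testis forms stayed lower. That scaling lowers the fold changes of all genes about alike, so this contrast follows from the starting values and is no separate result.

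**Figure D1:**
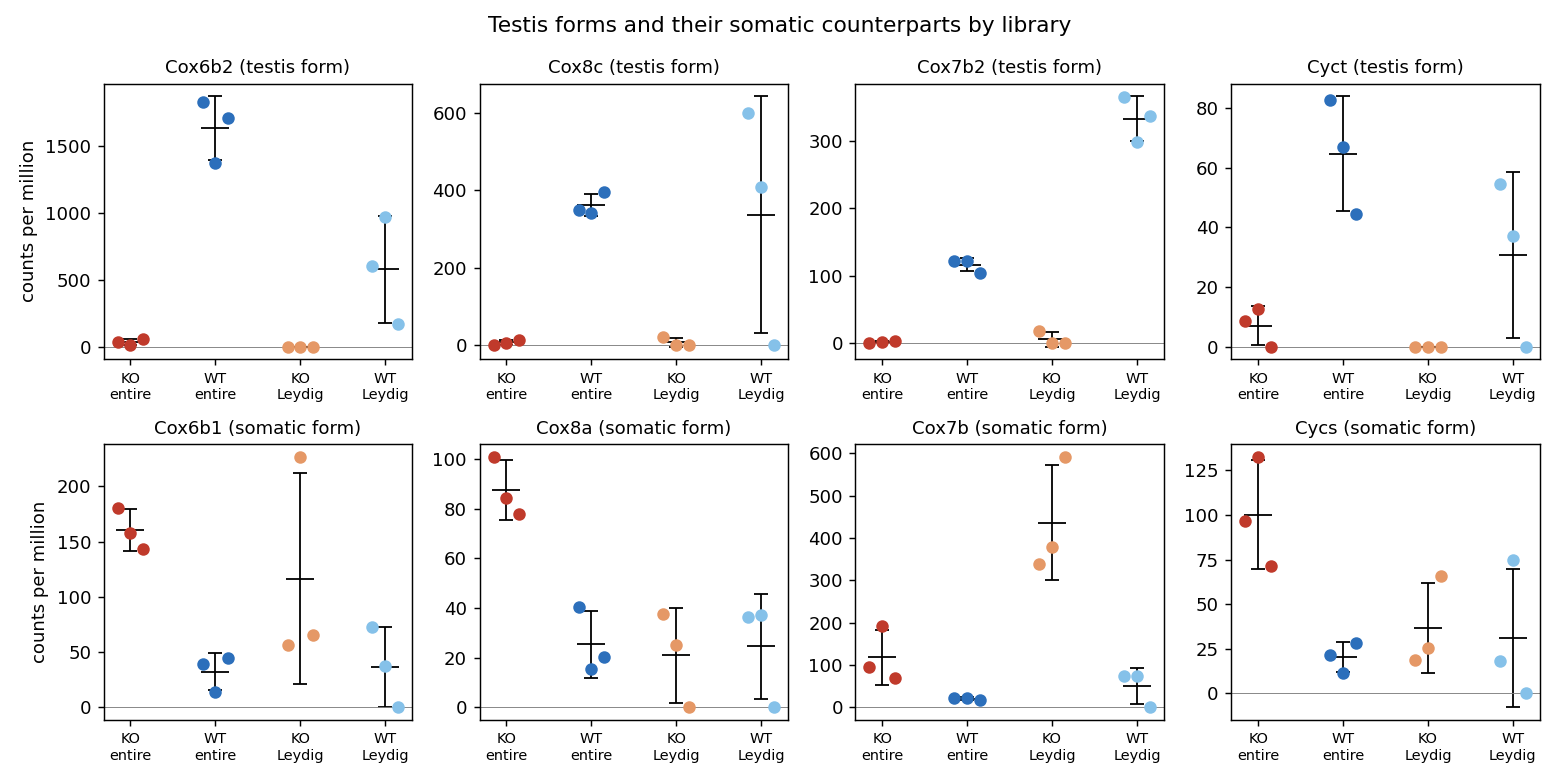
Level (CPM) of the 4 testis forms (top) and their somatic counterparts (bottom) in every library, with the group mean and SD (n = 3 per group) as black bars. In entire sections each testis form is lower and each somatic form higher in the knockout with no overlap. The rise turned to a fall for all 4 somatic forms with Leydig-marker scaling, which lowers all genes about alike. The Leydig-targeted points rest on few counts.

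Set against each other within a library, the pairs do not depend on scaling. Summed over the 4 pairs in knockout sections, testis forms had 52 counts and somatic forms 563, a testis share of 8.46% with 4.72% to 15.9% in single libraries. In wild-type sections testis forms had 2901 counts and somatic forms 130, a share of 95.7% with 95.1% to 96.8% in single libraries. In Leydig-targeted libraries the share was 3.17% in knockouts, from 2 and 61 counts, and 89.0% in wild type, from 138 and 17 counts. By pair, Cox6b2 took 15.3% (exact 95% interval 10.9 to 20.6) of the Cox6b2 and Cox6b1 counts in knockout sections and 98.2% (97.6 to 98.7) in wild-type sections. Cox7b2 took 1.39% (0.169 to 4.93) of its pair in knockout and 84.6% (78.6 to 89.4) in wild-type sections, and Cox8c took 5.36% (1.99 to 11.3) and 93.0% (90.38 to 95.02). For cytochrome c, Cyct took 6.92% (3.21 to 12.7) in knockout and 78.8% (70.3 to 85.8) in wild-type sections. The 2 genes of a pair are set against each other only to compare groups, since counts of different genes need not be caught equally well. Intervals and floors cover counting error only. Beside these values, the 11 spermatid markers took 0.0373% ± 0.0390 of counts in knockout sections and 4.06% ± 1.26 in wild-type sections, with none at 0 in either group (SD, n = 3 each). The 8 spermatocyte markers took 0.0225% ± 0.0023 in knockout and 0.878% ± 0.144 in wild-type sections. The 8 spermatogonia markers took 0.0649% ± 0.0046 and 0.0708% ± 0.0036, with Gfra1 at 0 in knockout sections. These near-equal sums hide opposite directions: of 5 tested, 2 were called higher and 3 lower, with a median log2 fold change of -1.71. Markers of somatic cells took more of the counts in knockout sections: beside the Leydig markers above, the 9 Sertoli markers took 1.35% ± 0.07 in knockout and 0.416% ± 0.125 in wild-type sections, and 7 of 9 tested were called higher. The 8 macrophage markers took 0.137% ± 0.036 and 0.0247% ± 0.0099, with 4 of 4 tested called higher, and the 6 peritubular myoid markers 0.193% ± 0.027 and 0.0821% ± 0.0304, with 2 of 4. None of the genes of these 4 somatic lists was at 0 in either group, and the part of these markers in the result was not tested.

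**Figure D2:**
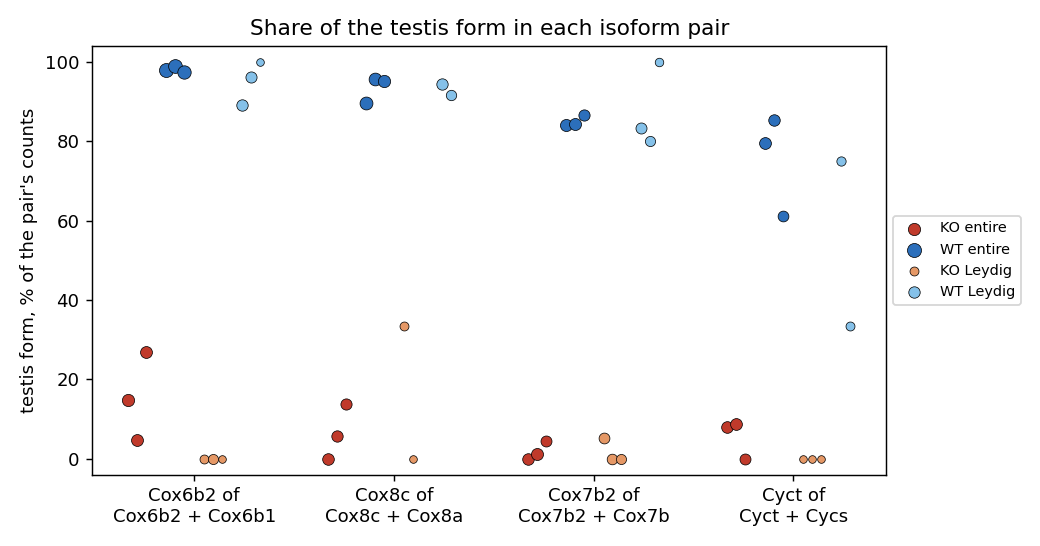
Share of the testis form in the summed counts of each isoform pair, one point per library with at least 1 count, coloured by group and sized by the log of the pair's counts. Wild-type section libraries lie between 61.1% and 99.0% and knockout section libraries between 0% and 27.0%, and the smallest points rest on 1 to 4 counts.

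Promoter windows are shown for Cox6b2, Cox7b2 and Cyct, the testis forms with an entry, and for their somatic partners Cox6b1, Cox7b and Cycs, because the 2 genes of each pair differed in opposite directions. Each is the 250 bases before the annotated gene start in RefSeq (GRCm38.p6), 5′ to 3′ on the gene's strand, with capitals marking every match on either strand to 1 of 6 motifs. These were CCAAT for the CCAAT box, GGGCGG for the SP1 box, CCGGAAG for the ETS site, GCATGCGC for the NRF1 core, AAGATGGC for the YY1 site and TGACG for the core of the cyclic AMP response element. The full response element, TGACGTCA, holds that core on both strands.
Cox6b2 promoter, chr7:4753095-4753344, minus strand: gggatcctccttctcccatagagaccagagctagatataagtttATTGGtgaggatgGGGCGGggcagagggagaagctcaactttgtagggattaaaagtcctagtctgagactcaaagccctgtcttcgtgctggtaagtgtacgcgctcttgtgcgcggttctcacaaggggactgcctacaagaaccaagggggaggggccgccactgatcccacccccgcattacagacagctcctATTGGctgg
Cox7b2 promoter, chr5:71548206-71548455, minus strand: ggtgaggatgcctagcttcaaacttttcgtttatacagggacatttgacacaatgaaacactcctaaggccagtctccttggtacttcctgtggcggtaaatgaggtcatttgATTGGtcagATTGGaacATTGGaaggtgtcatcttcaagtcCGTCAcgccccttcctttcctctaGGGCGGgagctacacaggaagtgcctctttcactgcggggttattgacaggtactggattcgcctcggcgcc
Cyct promoter, chr2:76360454-76360703, minus strand: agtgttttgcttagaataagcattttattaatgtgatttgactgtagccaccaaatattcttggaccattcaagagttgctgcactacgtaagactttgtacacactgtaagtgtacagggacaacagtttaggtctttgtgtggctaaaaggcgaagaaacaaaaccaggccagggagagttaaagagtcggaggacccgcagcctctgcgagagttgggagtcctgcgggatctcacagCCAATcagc
Cox6b1 promoter, chr7:30626115-30626364, minus strand: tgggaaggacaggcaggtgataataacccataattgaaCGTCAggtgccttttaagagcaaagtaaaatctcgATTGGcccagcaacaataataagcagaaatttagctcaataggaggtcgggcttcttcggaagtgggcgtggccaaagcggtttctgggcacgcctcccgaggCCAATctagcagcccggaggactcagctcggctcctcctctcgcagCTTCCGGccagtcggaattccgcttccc
Cox7b promoter, chrX:106015450-106015699, plus strand: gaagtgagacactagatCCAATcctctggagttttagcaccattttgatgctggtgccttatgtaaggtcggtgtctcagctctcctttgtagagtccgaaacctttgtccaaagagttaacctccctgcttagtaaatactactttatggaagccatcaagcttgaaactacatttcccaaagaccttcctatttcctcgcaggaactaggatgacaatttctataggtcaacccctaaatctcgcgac
Cycs promoter, chr6:50566570-50566819, minus strand: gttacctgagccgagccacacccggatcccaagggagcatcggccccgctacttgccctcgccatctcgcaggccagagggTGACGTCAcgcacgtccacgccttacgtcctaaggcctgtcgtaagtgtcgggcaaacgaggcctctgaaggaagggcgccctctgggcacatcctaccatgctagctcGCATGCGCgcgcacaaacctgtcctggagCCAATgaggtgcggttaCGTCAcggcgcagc
All 6 windows held CCAAT. The Cycs window also held the NRF1 core and the full cyclic AMP response element, and the Cox6b1 window an ETS site and the core of that element. The Cox6b2 window also held an SP1 box, and the Cox7b2 window an SP1 box and the core of the cyclic AMP response element. The Cyct and Cox7b windows held none of the other motifs. Entries were found for 70 of the 88 members, and Cox8c is among the genes named without one. The NRF1 core was in 12.9% of the 70 member windows, against 2.32% of all 27025 windows of the same length. The ETS site was in 15.7% of members and 7.05% of all, the full cyclic AMP response element in 7.14% and 1.62%, its core TGACG in 32.9% and 17.9%, CCAAT in 45.7% and 34.5%, and the SP1 box in 35.7% and 32.9%. The YY1 site was in 0% and 1.59%. The median GC content of member windows was 56.2%, against 52.0% for all windows, and these matches are a description of letters and not of binding.

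Over all 68 tested members in entire sections, 10 were higher and 10 lower in knockouts and 48 were not called. The shares of 14.7% each way stood below the 22.6% higher and 39.1% lower among all 5182 genes. The members' median log2 fold change was 0.12, against -0.35 for all genes tested. The zero point of this scale moved with the scaling, since the median of all genes was 0.23 with library size alone, when 28 members were higher and 5 lower. It was -2.74 with Leydig-marker scaling, when 0 members were higher and 58 lower. With only the 6 entire sections in the fit, 26 members were higher. The members' median lay 0.472 above that of all genes on the TMM scale, and a change of scaling shifts both medians about alike. Without knockout Leydig-targeted replicate 3, a library of neither group, the median of all genes was 0.28 and 30 members were higher and 6 lower, and without replicate 2 of the same group 16 were higher. The 10 lower calls were 5 without knockout section replicate 1 or 2 and without wild-type section replicate 2 or 3. All 10 higher calls held in each of the 12 fits that left out 1 library wherever the gene was still tested. Cox8a, Cox6b1 and Cycs were tested in only the 6 fits that left out a Leydig-targeted library. Their calls were therefore never checked without a library of the 2 groups compared. Ndufa4 was tested in 10 fits. Without knockout section replicate 3, a fit in which Cox8a, Cox6b1 and Cycs were not tested, 7 members were higher.

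In complex I, the NADH dehydrogenase, 3 of 29 tested members rose and 4 fell in knockout sections. Ndufb11, an accessory subunit of the membrane arm, had 214, 230 and 211 CPM in knockout sections, against 23.0, 5.74 and 20.2 CPM in wild-type sections. Its log2 fold change of 3.20 ± 0.51 was the highest of the tested members (adjusted p = 1.47e-09). Its exons overlap those of Rbm10 on the other strand, and reads of overlapping genes cannot be told apart without a stated strand setting. The same holds for 25 of the 88 members, among them Ndufb5, Ndufs1, Atp5l and Atp5o of the genes called in any comparison. Ndufa1, a small membrane-arm subunit, had 92.5, 135 and 74.6 CPM in knockout sections, against 24.7, 15.3 and 16.2 CPM in wild-type sections (1.79 ± 0.50, adjusted p = 0.00082). Ndufa4, counted here with complex I by its symbol although its product is now placed with complex IV, rose by 1.74 ± 0.45 (adjusted p = 0.000302). Knockout and wild-type sections did not overlap for any of these genes. Without knockout Leydig-targeted replicate 3 the values were 3.80 for Ndufb11, 2.40 for Ndufa1 and 2.33 for Ndufa4, and Ndufb11 was at 3.89 without wild-type section replicate 1. With Leydig-marker scaling Ndufa1 and Ndufa4 turned to -0.51 and -0.57, and Ndufb11 lost its call.

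Ndufa12, a subunit of the matrix arm with the highest mean CPM in complex I, had 320, 196 and 286 CPM in knockout sections, against 807, 668 and 663 CPM in wild-type sections. It fell by 1.99 ± 0.46 on the log2 scale (adjusted p = 4.59e-05), and by 1.34 without knockout Leydig-targeted replicate 3 and 1.36 without knockout section replicate 2. Ndufa5, Ndufb5 and Ndufc1, accessory subunits, had lower calls that did not hold throughout. Ndufa5 had a log2 fold change of -1.54 ± 0.47 (adjusted p = 0.00222), and -0.90 with adjusted p = 0.0617 without knockout Leydig-targeted replicate 3. It was tested in only the 6 fits that left out a Leydig-targeted library, so its call was never checked without a section library. Ndufb5 was at -1.21 ± 0.45 (adjusted p = 0.0134), and its call was lost in 8 of 12 fits that left out 1 library, with adjusted p up to 0.222 and -0.57 without knockout Leydig-targeted replicate 3. Ndufc1 was at -1.19 ± 0.44 (adjusted p = 0.0137), and its call was lost in 6 of 12 such fits, with adjusted p up to 0.289, -0.53 without that library and -0.58 without wild-type section replicate 2. With library size alone the 3 were at -0.92, -0.60 and -0.55 and were not called. Their CPM in knockout and wild-type sections did not overlap. The other 22 tested members of complex I ranged from -0.86 for Ndufa2 to 1.07 for Ndufs5 and were not called.

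None of the 3 tested members of complex II, the succinate dehydrogenase, was called. Sdha, its flavoprotein subunit and the member with the most counts, had 311, 413 and 317 CPM in knockout sections, against 177, 145 and 129 CPM in wild-type sections. These did not overlap, but the TMM log2 fold change of 0.60 ± 0.44 did not pass (adjusted p = 0.229). Sdhb and Sdhc were at 0.08 and 0.38.

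In complex III, the cytochrome bc1 complex, 2 of 6 tested members fell and none rose in knockout sections. Uqcrq, a small subunit with the highest mean CPM in the complex, had 832, 663 and 771 CPM in knockout sections, against 1590, 1737 and 1660 CPM in wild-type sections. The groups did not overlap, and the log2 fold change was -1.74 ± 0.46 (adjusted p = 0.000475), or -1.08 without knockout Leydig-targeted replicate 3. Uqcrfs1, the Rieske iron-sulfur protein, had 317, 319 and 214 CPM in knockout sections, against 457, 392 and 368 CPM in wild-type sections. Its log2 fold change was -1.11 ± 0.45 (adjusted p = 0.0235), a call that was lost in 10 of 12 fits without 1 library, with adjusted p up to 0.301 and -0.48 without knockout Leydig-targeted replicate 3. Uqcrb, Uqcrh, Cyc1 and Uqcr10 ranged from 0.04 to 0.80 and were not called.

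In complex IV, 4 of 13 tested members rose and 4 fell, of which 3 of each were the isoform pairs above. Cox6a1, the somatic form of subunit VIa with the highest mean CPM of all members, had 963, 1451 and 988 CPM in knockout sections, against 390, 341 and 323 CPM in wild-type sections (1.09 ± 0.46, adjusted p = 0.0311). It was at 1.72 without knockout Leydig-targeted replicate 3 and turned to -1.30 with Leydig-marker scaling. Cox7a2, the widely expressed form of subunit VIIa, had 103, 153 and 165 CPM in knockout sections, against 175, 251 and 295 CPM in wild-type sections (-1.39 ± 0.46, adjusted p = 0.00489). Its call was lost in 5 of 12 fits without 1 library and with library size alone, with -0.73 without knockout Leydig-targeted replicate 3 and -0.79 without knockout section replicate 1. The remaining 5, Cox4i1, Cox5b, Cox6c, Cox7a2l and Cox7c, ranged from -0.53 to -0.28 and were not called.

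In ATP synthase, 2 of 16 tested members rose in knockout sections and none fell. Atp5d, the delta subunit of the catalytic head, had 242, 201 and 295 CPM in knockout sections, against 45.9, 26.8 and 16.2 CPM in wild-type sections (2.39 ± 0.47, adjusted p = 1.68e-06). Atp5g3, which encodes the c subunit of the proton-driven ring, had 584, 640 and 448 CPM in knockout sections, against 138, 109 and 88.9 CPM in wild-type sections (1.71 ± 0.47, adjusted p = 0.000641). Neither overlapped between genotypes. Without knockout Leydig-targeted replicate 3 they were at 3.02 and 2.33, Atp5d was at 3.07 without wild-type section replicate 1, and with Leydig-marker scaling Atp5g3 turned to -0.69 while Atp5d lost its call. Atp5g1, which encodes the same mature c subunit, was at 0.62 ± 0.45 (adjusted p = 0.229). Atp5j2, the member of the complex with the highest mean CPM, had 664, 589 and 740 CPM in knockout sections, against 385, 408 and 360 CPM in wild-type sections (0.19 ± 0.45, adjusted p = 0.732). The 14 members not called ranged from -0.53 for Atp5mpl to 0.62 for Atp5g1.

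**Figure D3:**
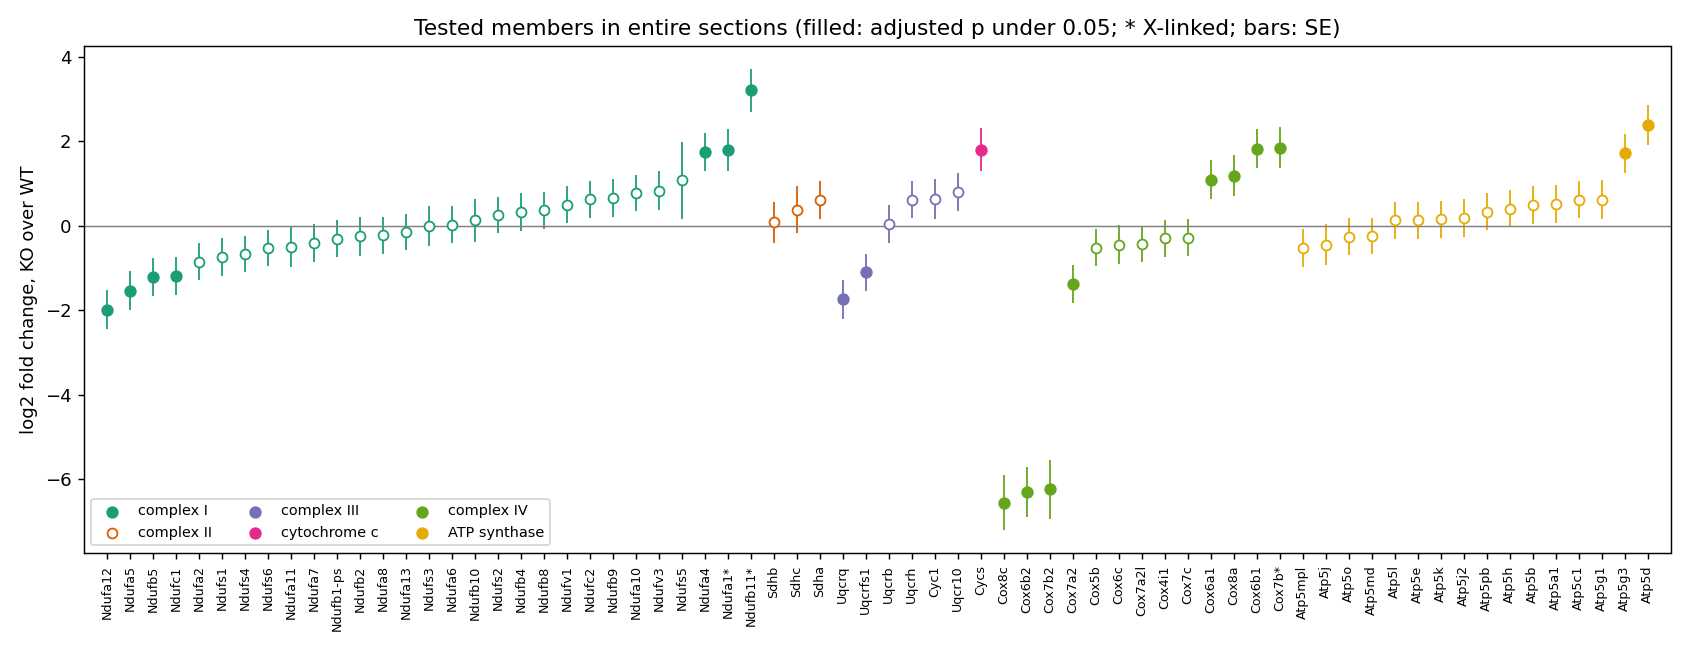
Log2 fold change, knockout over wild type, of the 68 tested members in entire sections, grouped by complex and sorted within it, with SE bars. Filled points had an adjusted p under 0.05 and asterisks mark X-linked genes; Cox8c, Cox6b2 and Cox7b2 lie between -6.56 and -6.25 and Ndufb11 is highest at 3.20, and of the 10 higher genes 8 turned negative with Leydig-marker scaling.

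The X chromosome holds 3 of the tested members, Ndufb11, Ndufa1 and Cox7b, and each of them rose in knockout sections. This set was picked after its values were seen. Over all genes, 65.5% of 139 X-linked genes tested were higher in knockout sections and 9.35% lower, against 21.4% and 40.0% of 5028 autosomal genes. The median log2 fold change was 1.37 for X-linked genes and -0.42 for autosomal genes. Of the 65 autosomal members tested, 7 were higher and 10 lower.

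The summed share of counts set the complexes apart. All 88 members took 1.49% ± 0.13 of counts in knockout sections and 1.30% ± 0.04 in wild-type sections (SD, n = 3 each). ATP synthase genes took 0.418% ± 0.048 in knockout and 0.209% ± 0.010 in wild-type sections, complex II genes 0.0472% ± 0.0082 and 0.0217% ± 0.0037, and complex I genes 0.437% ± 0.026 and 0.356% ± 0.021. Complex IV genes took 0.366% ± 0.041 in knockout and 0.451% ± 0.028 in wild-type sections, and complex III genes 0.211% ± 0.005 and 0.258% ± 0.007. The sums were higher in knockout sections for ATP synthase and complexes I and II and lower for complexes III and IV, without overlap, and the lower sums rested on few genes. Without Cox6b2, Cox7b2 and Cox8c, complex IV took 0.362% ± 0.042 in knockout and 0.239% ± 0.004 in wild-type sections, and without Uqcrq, complex III took 0.136% ± 0.008 and 0.0915% ± 0.0110. Both directions thus turned, and both were computed after the values were seen. Without the member of highest mean CPM, ATP synthase and complexes I and II kept their direction. The testis forms accounted for 0.00455% ± 0.00207 in knockout and 0.218% ± 0.025 in wild-type sections. These shares are of library totals, without TMM factors. The factors were 0.994, 1.05 and 0.975 in knockout sections, against 0.772, 0.567 and 0.687 in wild-type sections. On the TMM scale, median log2 fold changes of tested members were 0.257 for ATP synthase, -0.007 for complex I and 0.379 for complex II. Those medians were 0.328 for complex III and -0.443 for complex IV. The directions of the sums can therefore depend on the scaling, and no test was run on them.

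**Figure D4:**
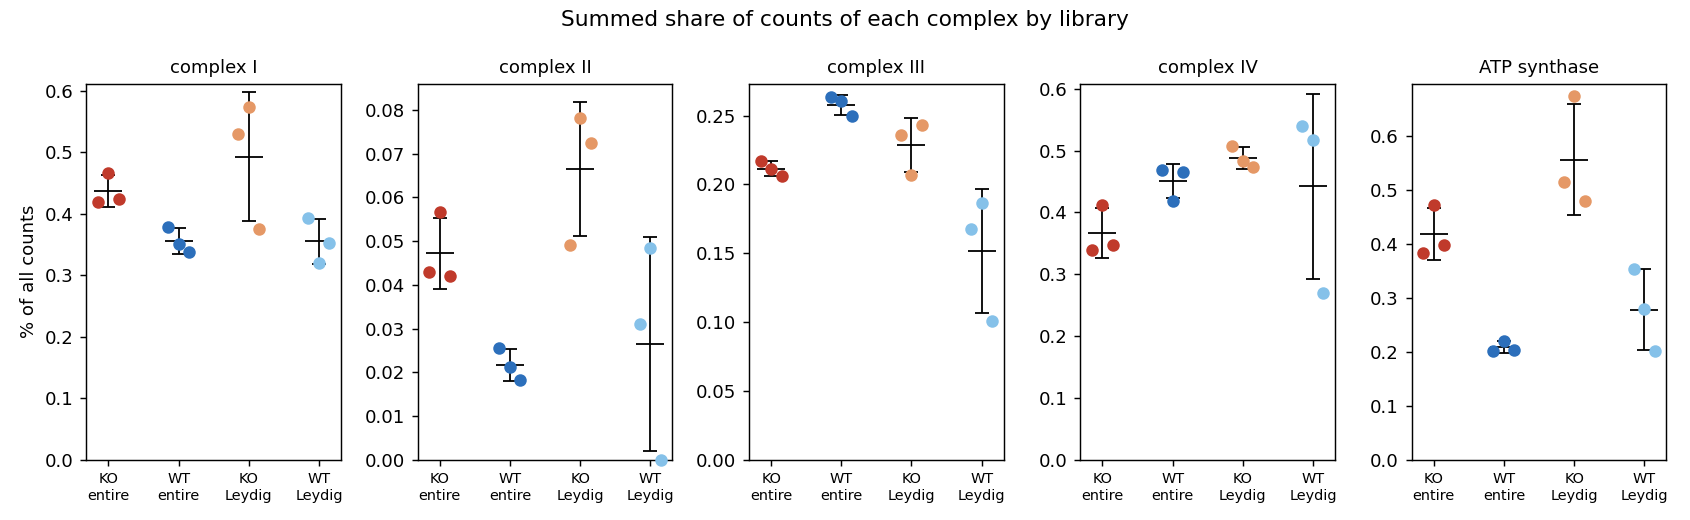
Summed share of each library's counts taken by the genes of each complex, one point per library with the group mean and SD (n = 3 per group) as black bars. Shares are of library totals, without TMM factors. In entire sections ATP synthase genes take 0.384% to 0.473% in knockouts and 0.202% to 0.221% in wild type, while complex IV genes take 0.339% to 0.413% in knockouts and 0.419% to 0.469% in wild type, an order that turns without Cox6b2, Cox7b2 and Cox8c (0.336% to 0.411% and 0.236% to 0.244%).

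The 20 untested members had 0 to 166 counts over all 12 libraries. Ndufa4l2 had no count anywhere. Cox7a1, the heart and muscle form of subunit VIIa, had 3, 8 and 2 counts in knockout sections, against 0, 0 and 0 in wild-type sections, which is at least 4.87-fold higher taking 3 counts in the group as the floor. Uqcr11 of complex III had 54.7, 58.7 and 59.1 CPM in knockout sections, against 14.1, 13.4 and 16.2 CPM in wild-type sections, a ratio of 4.02 (2.39 to 7.08). Ndufs8, an iron-sulfur subunit of complex I, had 13 counts in knockout sections and 3 in wild-type sections, a ratio of 4.87 (1.34 to 26.6). Cox7a1, Uqcr11 and Ndufs8 were picked with their values already known. Of all 88 members, 17, 12 of them tested, have a near copy in another gene's transcript on either strand. A near copy has at least 97% identity over 100 of the last 300 transcript bases. Ndufa12, Ndufb11, Atp5l and Atp5o are among those of the genes named here. For these 4 the copies held 13, 1, 5 and 9 counts beside 1327, 303, 210 and 327 for the genes. For 6 members, Cox5a, Uqcrc2, Ndufb6, Atp5g2, Cox5b-ps and Ndufb2, the copy held more counts than the gene, so their low counts are uncertain. The search did not leave out overlapping genes. Cox5a, Uqcrc2, Ndufb6 and Ndufb2 each overlap exons of 1 gene on the other strand, which may be the match instead of a copy elsewhere.

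In libraries irradiated at Leydig cells, the testis forms again fell in knockouts and 5 other members rose. Of 68 tested members 5 were higher and 3 lower, beside 7.55% higher and 20.9% lower among all genes tested. Cox6b2 had no count in any knockout Leydig-targeted library, against 601, 968 and 168 CPM in the wild-type ones, and was at least 24.6-fold lower. Cox8c had 18.9, 0 and 0 CPM in knockout libraries, against 601, 410 and 0 CPM in wild-type libraries, a ratio 54.2-fold lower (9.22 to 2187) on 1 knockout count. Cox7b2 had 18.9, 0 and 0 CPM in knockout libraries, against 364, 298 and 336 CPM in wild-type libraries, 36.9-fold lower (6.14 to 1506) on 1 knockout count. Cox6b2 and Cox7b2 did not overlap, while Cox8c did through the shallow wild-type replicate 3. Their adjusted p was 3.62e-08 for Cox6b2, 4.88e-06 for Cox8c and 2.77e-05 for Cox7b2, and all 3 calls held in every fit that left out 1 library. The number of lower members was 5 without wild-type Leydig-targeted replicate 3. The fitted log2 fold changes of Cox8c and Cox7b2, -5.70 and -5.25, were -4.43 and -4.34 without wild-type Leydig-targeted replicate 1 and -9.13 and -8.67 without knockout Leydig-targeted replicate 1, which held their only knockout count. Without wild-type Leydig-targeted replicate 3 they were -6.51 and -5.88. Cyct had 0 counts in knockout and 4 in wild-type libraries, at least 1.64-fold lower.

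Beside these values, the 11 spermatid markers took 0.00818% ± 0.00764 of counts in knockout and 1.92% ± 0.71 in wild-type Leydig-targeted libraries (SD, n = 3 each). Of these, Acr, Crisp2, Odf1, Tnp1, Tnp2 and Tssk6 were at 0 in the knockouts, and none was at 0 in wild type. The 8 spermatocyte markers took 0.0147% ± 0.0026 in knockouts, with Ldhc, Pgk2, Piwil1, Sycp3 and Tdrd6 at 0, and 0.767% ± 0.138 in wild type. The Leydig-targeted libraries of wild type thus held transcripts of germ cells as well as of Leydig cells, and the part of these transcripts in the result was not tested.

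Among the 5 higher genes, Atp5g3 had 1000, 1310 and 658 CPM in knockout libraries, against 310, 186 and 0 CPM in wild-type libraries (1.92 ± 0.59, adjusted p = 0.00741). Cox7b had 340, 378 and 592 CPM in knockout libraries, against 72.9, 74.5 and 0 CPM in wild-type libraries (2.34 ± 0.74, adjusted p = 0.00958). Both genes also rose in knockout sections, and neither overlapped between genotypes. Atp5l, the g subunit of ATP synthase, had 14, 12 and 4 counts in knockout libraries, against 0, 2 and 1 in wild-type libraries, 8.13-fold higher (2.53 to 41.6) with adjusted p = 0.0134. Atp5o, the stalk subunit that links the head to the membrane part, had 170, 403 and 460 CPM in knockout libraries, against 54.7, 74.5 and 0 CPM in wild-type libraries (2.23 ± 0.82, adjusted p = 0.0278). Ndufc2, a complex I membrane-arm subunit, had 490, 630 and 132 CPM in knockout libraries, against 54.7, 149 and 0 CPM in wild-type libraries (2.30 ± 0.75, adjusted p = 0.0117), with overlap. None of the 5 calls held in every fit that left out 1 library: 0 members were higher without knockout Leydig-targeted replicate 2, without wild-type Leydig-targeted replicate 3 or without wild-type section replicate 3, and all 5 lost their call with Leydig-marker scaling. Without wild-type Leydig-targeted replicate 3, the log2 fold change was 1.12 for Atp5g3, 1.57 for Cox7b, 1.45 for Atp5o and 1.56 for Ndufc2, and without replicate 1 of that group it was 3.33 for Atp5g3, 3.25 for Cox7b and 2.88 for Atp5o. Without replicate 2 of that group it was 4.11 for Atp5l and 3.40 for Ndufc2, and without wild-type section replicate 3 it was 2.10 and 1.71. Atp5o was at 2.93 without knockout Leydig-targeted replicate 1 and 1.62 without replicate 2 of that group.

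Of the genes called in entire sections, Ndufb11 had 151, 202 and 132 CPM in knockout Leydig-targeted libraries, against 54.7, 37.2 and 0 CPM in wild-type ones, without overlap, and was not called (1.65 ± 0.92, adjusted p = 0.172). Cox6a1 had 2075, 2091 and 2104 CPM in knockout libraries, against 1166, 931 and 505 CPM in wild-type libraries, also without overlap and not called (0.94 ± 0.50, adjusted p = 0.15). Cycs and Cox8a each had 3 counts in knockout and 3 in wild-type libraries, too few for a fold. Cox6b1 had 13 counts in knockout and 5 in wild-type libraries (0.90 ± 0.92, adjusted p = 0.496). The members' median log2 fold change was 0.24, against -0.28 for all genes tested. All members took 1.84% ± 0.18 of counts in knockout and 1.26% ± 0.30 in wild-type Leydig-targeted libraries (SD, n = 3 each).

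**Figure D5:**
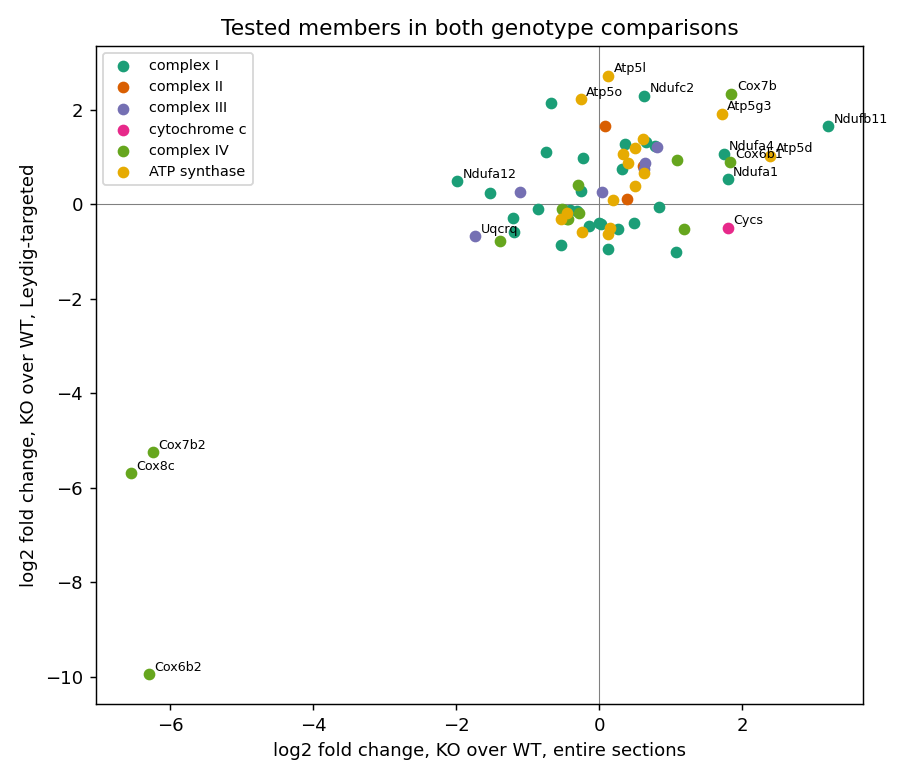
Log2 fold change, knockout over wild type, of the 68 tested members in entire sections (x axis) and in Leydig-targeted libraries (y axis), coloured by complex. Cox6b2, Cox8c and Cox7b2 lie at the lower left and Cox7b, Atp5g3 and Ndufb11 at the upper right, where Cox7b and Atp5g3 turned negative in entire sections with Leydig-marker scaling; fitted values such as that of Cox6b2 (-9.95), with no count in knockout Leydig-targeted libraries, are not bounds.

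No member's genotype difference was shown to differ between regions. The genotype by region interaction was called for 0 of 68 members in edgeR and for 0 with the DESeq2 Wald test, where 0.193% of all genes were called higher and 0.135% lower, and 5 members had an unadjusted p under 0.05. Ndufa12, at an interaction of 2.48 ± 0.87 (adjusted p = 0.174), was the only one called in any of the alternatives, without wild-type Leydig-targeted replicate 1. The other 4 were Ndufs4, Atp5o, Atp5l and Ndufs1, at 2.83, 2.49, 2.60 and 1.85.

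Between regions of the same genotype few members differed. In wild type, 1 of 68 was higher in Leydig-targeted libraries than in entire sections and 4 were lower, where 3.22% of all genes were higher and 12.4% lower. Ndufa12 had 200, 37.2 and 0 CPM in wild-type Leydig-targeted libraries, against 807, 668 and 663 CPM in wild-type sections (-3.05 ± 0.63, adjusted p = 0.000101). It held its call in every fit without 1 library, at -5.78 without wild-type Leydig-targeted replicate 1. Uqcrq had 638, 782 and 673 CPM in wild-type Leydig-targeted libraries, against 1590, 1737 and 1660 CPM in wild-type sections (-1.95 ± 0.51, adjusted p = 0.00333, or 0.0809 without wild-type section replicate 3 and 0.053 without wild-type section replicate 2). Cox6b2 was at -1.92 ± 0.51 (adjusted p = 0.00375, or 0.112 without wild-type section replicate 3), and -2.63 without wild-type Leydig-targeted replicate 2, with 579 ± 401 CPM in wild-type Leydig-targeted libraries and 1635 ± 237 CPM in wild-type sections (SD, n = 3 each). Ndufs1, the largest subunit of complex I, was at -1.84 ± 0.64 with overlapping groups, and its call (adjusted p = 0.0329) was lost in 10 of 12 fits without 1 library. It was at -2.50 without wild-type Leydig-targeted replicate 2. Ndufs5, called higher at 4.04 ± 1.09 (adjusted p = 0.00422, or 3.03 with 0.136 without wild-type Leydig-targeted replicate 2), had 7 counts in wild-type Leydig-targeted libraries and 4 in wild-type sections, so its call rests on the shallow libraries, where 1 count is worth many CPM. The 4 lower calls were 2 without wild-type Leydig-targeted replicate 3 or wild-type section replicate 1 or 2, and 1 without wild-type section replicate 3.

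In knockouts, Cox7b alone was called higher in Leydig-targeted libraries than in entire sections, where 1.91% of all genes were higher and 3.53% lower. It had 340, 378 and 592 CPM in knockout Leydig-targeted libraries, against 94.6, 191 and 68.4 CPM in knockout sections (1.57 ± 0.48, adjusted p = 0.0299). The groups did not overlap, but the call was lost in 9 of 12 fits without 1 library, with adjusted p up to 0.22, and 6 members were called lower without wild-type Leydig-targeted replicate 3. The region comparisons share libraries with the genotype comparisons and are not independent of them.

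Other genes of mitochondrial energy metabolism, taken from lists chosen with earlier results known, moved in both directions in knockout sections, where 22.6% of all genes tested were higher and 39.1% lower. The 10 tested mitochondrially encoded genes, which encode the remaining subunits of these complexes, ranged from -0.69 for mt-Nd4 to 0.89 for mt-Atp6, with 0.0982 as their smallest adjusted p and a median of -0.02. Of 15 tested assembly factors 2 rose and 6 fell, with the complex I factors Ndufaf3 and Tmem126b at -3.95 ± 0.51 and -3.65 ± 0.52, the complex III factor Uqcc2 at -2.83 ± 0.49 and Dmac2 at -1.74 ± 0.44. Of 11 carriers, porins and related genes 6 rose and 2 fell. Slc25a5 and Slc25a4, carriers that exchange ADP and ATP across the inner membrane, rose by 2.27 ± 0.48 and 1.77 ± 0.46, and Etfa, an electron carrier of fatty acid oxidation, by 2.07 ± 0.52. Slc25a31, the testis form of that ADP and ATP carrier, fell by 1.70 ± 0.49 (chosen after its values were seen), and Vdac2, an outer membrane porin, fell by 2.13 ± 0.47. Of 15 genes of the citric acid cycle and pyruvate dehydrogenase 3 rose and 5 fell. Pdha2, the testis form of the pyruvate dehydrogenase E1 alpha subunit, had 3 counts in knockout and 158 in wild-type sections. Dlat, the E2 component, fell by 2.17 ± 0.45, while Idh3g and Idh2, isocitrate dehydrogenase genes, rose by 3.11 ± 0.52 and 2.86 ± 0.66. Of 4 biogenesis regulators tested none rose and 2 fell: Polg, the mitochondrial DNA polymerase, at -1.997 ± 0.444 and Tfam, which packages mitochondrial DNA, at -1.49 ± 0.46.

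In Leydig-targeted libraries, 7.55% of all genes tested were higher and 20.9% lower in knockouts. Of 10 mitochondrially encoded genes mt-Nd4 fell in knockouts, by 1.16 ± 0.44 (adjusted p = 0.0339), and the mitochondrially encoded share was 2.31% ± 0.30 in knockout and 5.11% ± 2.99 in wild-type libraries (SD, n = 3 each), with 8.53% in wild-type replicate 3. Slc25a5 rose by 1.63 ± 0.58 and Slc25a31 fell by 2.85 ± 0.96 among 11 carriers. Of 15 citric acid cycle and pyruvate dehydrogenase genes 4 rose and 2 fell, with Pdha2 at 0 counts in knockout and 9 in wild-type libraries, Pdha1, the somatic form, at 12 and 0, and Dlat at 2 and 13. Of 15 assembly factors Cox14 alone was called, with 12 counts in knockout and 0 in wild-type libraries, and none of 4 regulators was called. Between regions, mt-Atp6 and mt-Co2 were higher in wild-type Leydig-targeted libraries than in wild-type sections, by 2.88 ± 0.59 and 2.42 ± 0.53, and Etfdh by 3.00 ± 1.13. Of all genes tested, 3.22% were higher there and 12.4% lower. Etfdh had 5 counts in these Leydig-targeted libraries and 6 in the sections (adjusted p = 0.0496 by the edgeR test). mt-Atp6 had 27 counts in them, at 664.5 ± 737.4 CPM (SD, n = 3). Polg, Vdac2, Tmem126b and Cox10 were lower there, at -2.53 ± 0.79, -1.91 ± 0.54, -2.49 ± 0.85 and -3.20 ± 1.18. Their counts in wild-type Leydig-targeted libraries were 4, 35, 3 and 1, so all but the Vdac2 call rest on very few counts. The genes of these lists were not followed in the fits that left out 1 library. In knockouts Etfdh was higher in Leydig-targeted libraries than in sections, by 2.41 ± 0.65. There mt-Nd4, mt-Cytb and the complex III factor Ttc19 were lower, at -1.60 ± 0.44, -1.36 ± 0.45 and -2.67 ± 0.83. Ttc19 had 3 counts in knockout Leydig-targeted libraries. Of all genes tested, 1.91% were higher and 3.53% lower in this comparison.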

How the data were processed

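RNA was measured as read counts per gene in 12 PIC libraries of mouse testis, 3 in each of 4 groups taken from the labels. The authors deposited 1 table of raw counts, and tools named per the submitters' processing notes, without order or versions, are UMI-tools, Trim Galore, HISAT2 and featureCounts with build GRCm38. The sources used here do not give the strand setting or annotation. Genes were kept by edgeR's filterByExpr with a minimum count of 10, about 66.1 CPM in at least 3 libraries. The 12 libraries were fitted together with edgeR 4.0.16 (limma 3.58.1, R 4.3.3) by robust quasi-likelihood with TMM factors, and p-values were adjusted by Benjamini-Hochberg over 5182 genes. The script was tested on simulated data in which few genes changed and as many rose as fell. That test cannot show how scaling acts where many genes change and more fall than rise. Near copies were searched with BLAST+ 2.17.0, and exact intervals used SciPy 1.17.1. Alternatives were library size, DESeq2 1.42.0 size factors and Wald test, Leydig-marker scaling, no filter, totals retaken after the filter, 2 groups alone, a replicate block and leaving out each library.

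The genes and lists were chosen with earlier results of these data known. Named genes are those called, then the tested member with the highest mean CPM in each complex, the testis forms and their counterparts, and up to 4 genes by smallest p in each pathway list. Deviations from the group mean correlated at 0.241, 0.11 and 0.19 between same-numbered knockout and wild-type entire sections. For Leydig-targeted libraries the values were 0.00529, 0.00707 and 0.00374. Libraries of unlike number were not compared, so these values cannot show whether same-numbered libraries share a batch.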

Additional observations from a re-analysis of the deposited data

How the results depend on the processing

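The zero point of every fold change moved with the scaling and with the libraries left out, and the cause was not tested. With library size alone, members higher and lower numbered 28 and 5 between genotypes in entire sections, 9 were higher in knockout Leydig-targeted libraries, and 5 and 3 were higher in Leydig-targeted libraries than in sections of wild type and knockout. With Leydig-marker scaling the genotype counts were 0 higher and 58 lower in entire sections and 0 and 23 in Leydig-targeted libraries. Between regions 30 were then lower in wild type, and 0 were higher and 1 lower in knockouts. In entire sections that scaling reversed Atp5g3 to -0.69, Cox6a1 to -1.30, Cox7b to -0.48, Cox8a to -1.14, Ndufa1 to -0.51, Ndufa4 to -0.57, Cox6b1 to -0.49, Cycs to -0.50, and the uncalled Atp5l to -2.31 and Ndufc2 to -1.77. In the region comparison of knockouts, 3 members were higher with DESeq2 size factors and 3 with the DESeq2 Wald test, which gave 3 higher in wild type. Without the filter 7 were lower in wild type and 0 higher in knockouts. With totals retaken after the filter, an alternative chosen after seeing the data, 2 were higher in wild type and 0 in knockouts. With only the 2 groups compared in the fit, 26 were higher in knockout sections, 2 higher and 0 lower in knockout Leydig-targeted libraries, where 17 members were tested, 2 higher and 1 lower in wild-type Leydig-targeted libraries, and 4 higher in knockout ones.

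Leaving out 1 library gave 7 to 30 members higher and 5 to 11 lower in entire sections, 0 to 5 and 3 to 5 in Leydig-targeted libraries, 0 to 3 and 1 to 5 between regions of wild type, 0 to 2 and 0 to 6 between regions of knockouts, and 0 to 1 and 0 to 0 for the interaction. All members took 1.418% to 1.53% of counts in knockout sections, 1.281% to 1.315% in wild-type sections, 1.745% to 1.929% in knockout and 1.144% to 1.428% in wild-type Leydig-targeted libraries. In the same order, testis forms took 0.003399% to 0.005415%, 0.2078% to 0.2318%, 0% to 0.001887% and 0.1063% to 0.1667%, somatic counterparts 0.04167% to 0.05195%, 0.008611% to 0.01163%, 0.0554% to 0.06892% and 0.01002% to 0.02119%, and the testis share of both was 6.254% to 11.86%, 95.23% to 96.09%, 0% to 3.846% and 88.73% to 94.5%. As shares of nuclear protein-coding counts, all members took 1.651% in knockout and 1.476% in wild-type sections, and testis forms 0.2469% in wild-type sections. With the replicate block, 10 members were higher and 10 lower in entire sections and 5 and 3 in Leydig-targeted libraries, and between regions 1 and 4 in wild type and 1 and 0 in knockouts. The block changed no call of a member. Depth limits the Leydig-targeted values most, where many members had under 10 counts per group.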

Other observations

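Ndufb4c, which carries a complex I symbol but is annotated as a pseudogene and so is not among the 88 genes, had 0, 1 and 0 counts in knockout sections, against 8, 9 and 6 counts in wild-type sections. In Leydig-targeted libraries it had 0 counts in knockouts and 5 in wild type. It was chosen after its values were seen and was not tested.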
